A study of Mus musculus with 4 samples.

Results

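Colon intraepithelial lymphocytes (IEL) of unmanipulated mice were set against the array whose label reads lamina propria, across 22180 genes and on 2 of the 4 arrays of the series. Intraepithelial lymphocytes are mostly T cells lodged within the gut epithelium, and the lamina propria is the connective tissue beneath them. RNA was hybridised to Affymetrix whole-transcript mouse arrays, with 1 array for each group and therefore no replicate: the number of arrays limits the precision, and no test, standard deviation or standard error across samples can be given. Each value below is the log2 level of a gene on an array, or the difference of its log2 levels between a pair of arrays.

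All mice were C57Bl/6 animals of 8 to 10 weeks. The series' text gives a pool of 10 mice, 5 male and 5 female, in one place for each sample and in another as the total. Epithelium was shaken off the gut wall in a chelating buffer, the remaining colon tissue was digested with collagenase to release the lamina propria, and T cells were then enriched by magnetic negative selection to which an anti-EpCAM antibody, directed at epithelial surfaces, had been added. The other arrays hold small intestinal IEL of unmanipulated mice, and colon IEL of mice given vancomycin, ampicillin, neomycin and metronidazole for 7 days and then recolonized for 7 days from untreated littermates, by co-housing or soiled bedding. Both are used here for levels, and the recolonized array also as a second colon IEL array from a differently treated group.

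The colon epithelium is a single sheet of absorptive colonocytes, mucus-secreting goblet cells and rarer hormone-secreting and tuft cells, renewed from crypts. Colonocytes take up salt, water and short-chain fatty acids, which they burn in their mitochondria, and they carry enzymes that modify foreign compounds. T cells recognise antigen through a receptor bound to the CD3 chains, and carry CD45 (Ptprc) like other leukocytes.

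The 4 markers went against the label of the lamina propria array. Ptprc was at 8.71 on the colon IEL array, 9.01 on the recolonized array, 9.10 on that of small intestinal IEL and 3.09 on the array labelled lamina propria. Cd3e, a CD3 chain, was at 9.17, 9.43, 9.49 and 3.72 in the same order. Both T cell markers were high on the 3 IEL arrays and low on the labelled lamina propria array. Epcam was at 4.28 on the colon IEL array, 5.91 on the recolonized array, 7.88 on that of small intestinal IEL and 9.20 on the array labelled lamina propria. Muc2, the gel-forming mucin of goblet cells, was at 7.00, 9.45, 9.16 and 11.55 in that order. The epithelial markers were thus highest on the array labelled lamina propria, although the series' text describes a selection with an added antibody against EpCAM. The comparison is accordingly described as lymphocyte-rich against colon epithelium-rich material, and the second array is called the labelled LP array. In such mixed material, fewer cells of a type and less RNA per cell cannot be told apart.

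A gene was counted when it reached the 50th percentile of genes on whichever array of the pair was brighter, here called the floor. It was called higher or lower if its levels were at least 2-fold apart (1 on the log2 scale). A gene that is low on one array passes the floor through the other, so counts and medians over members above the floor describe those members only, and the median over all measured members is given where it differs much. Of 12788 genes above the floor, 10.5% were higher in colon IEL and 34.7% lower, and the median difference was −0.44. Large differences were also mostly towards the labelled LP array: 752 genes were lower in colon IEL by 3 log2 units or more and 122 were higher by as much. Over all genes, the colon IEL array had a median level of 2.41 and the labelled LP array 2.18. The median difference depended on the floor: it was −1.16 with the floor at the 75th percentile, and 0.10 with no floor. Quantile normalization moved the median difference above the floor to 0.07 and the share of higher genes among those called from 23.2% to 48.9%, centring moved them to 0.07 and 51.1%, and a lowess correction against mean level to 0.02 and 44.2%. Sizes of differences are best read against these shifts.

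Several yardsticks within the comparison give the spread of log2 differences over genes that were not chosen for a cell type. Cytosolic ribosomal protein genes had an SD of 0.44 across genes, and 27 of 28 above the floor lay within 2-fold. Common reference genes had an SD of 1.15 across genes. Of the 15, 6 were lower and 0 higher, beside 34.7% lower and 10.5% higher over all genes above the floor. The differences of the reference genes lay between −3.36 and 0.30, a one-sided spread, and the part of cell types in it was not tested. For 968 genes measured by 2 probe sets, the median absolute gap between their differences was 0.68. Chemoreceptor genes (1432 olfactory, vomeronasal and taste receptor genes, chosen as a yardstick after values were seen) had a median difference of 0.20, and of the 74 above the floor 19 (25.7%) were higher in colon IEL and 0 lower. Sex-linked genes differed between the arrays, with Xist, transcribed from the inactive X chromosome, at 4.08 on the colon IEL array against 1.86 on the labelled LP array, and the Y-linked Eif2s3y at 2.64 and 5.46. The part of the mice's sex in the other differences was not tested.

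**Figure D1:**
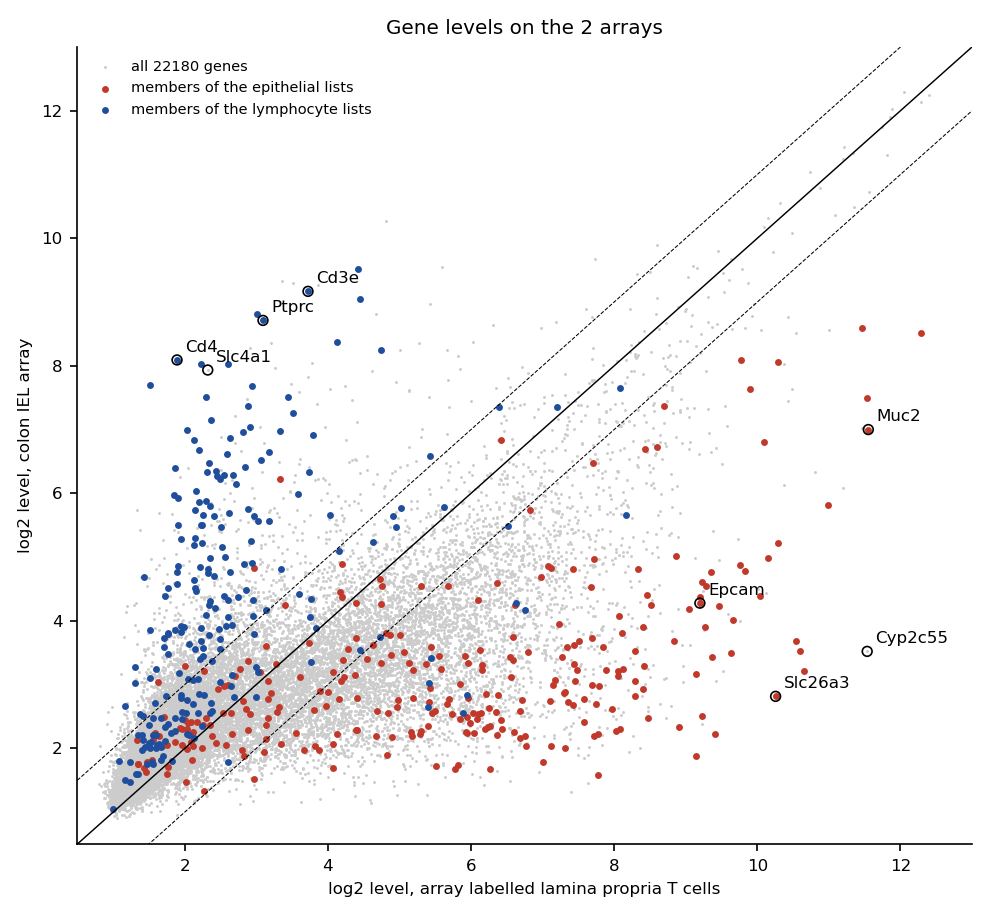
Log2 level of each of 22180 genes on the labelled LP array (horizontal axis) and on the colon IEL array (vertical axis), 1 array per group. The solid line marks equal levels, the dashed lines a 2-fold difference, blue points the members of the lymphocyte lists and red points the members of the epithelial lists; Ptprc and Cd3e lie far above the line, and Epcam, Muc2, Slc26a3 and Cyp2c55 far below it.

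Genes of T cells were higher in colon IEL throughout the steps from antigen receptor to migration. Of the 184 members of 10 lymphocyte lists that lay above the floor, 131 were higher and 9 lower, and the median was 1.89. The T cell receptor list moved as a whole, whereas integrins, transcription factors and cytokine receptors were split, and the members that were lower are ones that other cells carry too. The 12 genes with the largest positive differences, of all genes eligible for naming, included Cd4, Il7r, Cd53, Msn, Ptprc, Cd3e, Cd3g and Fli1. The rest of the 12 were Slc4a1, Slc25a37, Fam220a and Ube2l6, which are described below with red cell and interferon-stimulated genes.

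The T cell receptor and its proximal signalling genes had 21 of 22 members above the floor higher and 0 lower, with a median difference of 3.11. Cd3g, another CD3 chain, was at 8.03 on the colon IEL array, 8.77 on the recolonized array, 9.25 on that of small intestinal IEL and 2.61 on the labelled LP array, a difference of 5.42. Ptpn22, a phosphatase that restrains receptor signalling, was at 6.99, 6.49, 7.66 and 2.04 in that order, a difference of 4.95. For both genes the 3 IEL arrays lay at least 4 log2 units above the labelled LP array. The adaptors Lcp2 and Grap2 differed by 4.06 and 4.11. Sh2d1a, an adaptor of SLAM family receptors, was the member within 2-fold, with a difference of 0.96.

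Co-receptors and costimulatory molecules had 14 of 16 members above the floor higher and 0 lower (median difference 2.30, and 1.72 over all 17 measured). Cd4, which marks helper T cells, differed by 6.20; its labelled LP level lay below that array's median, so the size of the fold is not given. Its level was 8.09 on the colon IEL array, 7.70 on the recolonized array, 5.91 on that of small intestinal IEL and 1.89 on the labelled LP array. Cd8a and Cd8b1, which form the co-receptor of cytotoxic T cells, differed by 4.15 and 3.61. Cd8a was at 6.48, 7.04, 8.51 and 2.33 in the same order of arrays, so the co-receptors were ordered differently among the IEL arrays while the labelled LP array was lowest for both. Cd7 was higher by 5.09 and the costimulatory receptor Cd27 by 4.54. Inhibitory receptors had 7 of 9 members higher and 0 lower (median 1.77). They were led by Klrd1 (CD94), which pairs with NKG2 receptors, with a difference of 3.92, and Cd5 with 3.65. Pdcd1 (PD-1) differed by 1.73, and Lag3 by 0.36.

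Transcription factors of lymphocytes were divided, with 14 of 26 members higher, 2 lower and 10 within 2-fold (median difference 1.27). Fli1, an ETS family factor of blood cells, was at 7.52 on the colon IEL array, 7.61 on the recolonized array, 6.98 on that of small intestinal IEL and 2.30 on the labelled LP array. Lef1, a partner of beta-catenin in T cells, was at 7.14, 7.55, 3.85 and 2.37 in that order. Both were at least 4 log2 units higher on the colon IEL arrays than on the labelled LP array, but on the small intestinal IEL array Lef1 was nearer to the latter. Ikzf1 and Satb1, regulators of lymphocyte gene programmes, each differed by 3.60. Foxp3, which defines regulatory T cells, differed by 1.91 and was highest, at 4.90, on the recolonized array. The members that were lower were Myb, with 2.56 against 5.89, and Id3, with 2.65 against 5.40. Both are known also from crypt epithelium, and the other probe set of Myb differed by 0.15. Tox, at 3.88 and 3.83, was almost level.

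Cytokine receptors were also divided, with 6 of 22 members higher, 1 lower and 15 within 2-fold (median difference 0.82). Il7r, the receptor of the survival cytokine interleukin-7, was at 7.71 on the colon IEL array, 8.03 on the recolonized array, 6.44 on that of small intestinal IEL and 1.52 on the labelled LP array. Il2rb, the chain shared by the interleukin-2 and interleukin-15 receptors, was at 7.36, 7.32, 7.67 and 2.89. For these receptors the 3 IEL arrays formed a high group and the labelled LP array stood alone. Il27ra and Il6ra differed by 3.25 and 2.88. The member that was lower was Stat3, a signal transducer of many cell types, with a difference of −1.03, which became 0.56 with quantile normalization and 0.46 with the lowess correction.

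Chemokine and lipid receptors that guide lymphocytes had 9 of 11 members above the floor higher and 0 lower (median difference 2.0, and 1.15 over all 17 measured). Ccr7, which directs T cells to lymph nodes, was at 5.88 on the colon IEL array, 6.07 on the recolonized array, 3.55 on that of small intestinal IEL and 2.30 on the labelled LP array. S1pr1, which lets lymphocytes leave tissues, was at 5.80, 6.18, 4.97 and 2.35. The colon IEL arrays were the highest of the 4 for both genes. Gpr18 and Cxcr4 differed by 2.97 and 2.40. Ccr9, the receptor for homing to the small intestine, lay below the floor at 1.81 and 1.83.

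Integrin and adhesion genes were split in direction. Of 23 members of the adhesion list above the floor, 16 were higher and 5 lower (median difference 1.90). The tetraspanin Cd53, found on leukocytes, was higher by 5.80, the selectin ligand Selplg by 4.73, the integrin chain Itga4 by 4.71 and Itgb2, the shared chain of the leukocyte integrins, by 3.64. Those that were lower were integrin chains with wider or epithelial expression. Itga2 was at 2.84 on the colon IEL array against 5.94 on the labelled LP array, and Itgb4, a chain of hemidesmosomes, was at 3.03 and 5.41. Itga6, Itgb1 and Itgav differed by −2.59, −2.34 and −2.02; the other probe set of Itgav differed by 0.45. Itgae (CD103), the integrin chain with which IEL bind E-cadherin, was at 4.82, 5.47, 7.90 and 2.33 on the colon IEL, recolonized, small intestinal IEL and labelled LP arrays. Its ligand Cdh1 (E-cadherin) was at 4.61, 6.46, 6.98 and 9.23. The receptor and its ligand therefore differed in opposite directions, by 2.49 and −4.63.

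The actin and migration machinery of leukocytes gave one of the most uniform results among the lymphocyte lists, with 30 of 34 members higher and 0 lower (median difference 2.20). Msn (moesin), which links actin to the membrane, was at 8.03 on the colon IEL array, 8.18 on the recolonized array, 7.78 on that of small intestinal IEL and 2.23 on the labelled LP array, although its other probe set differed by 0.30. Rac2, a small GTPase of blood cells, was at 8.38, 9.05, 8.56 and 4.13. The 3 IEL arrays were close together for both. Arhgap15 and the Rac activator Dock2 differed by 4.02 and 3.87.

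Several killing and secretion genes exceeded their labelled LP levels on the colon IEL array, and some were higher still on the other IEL arrays. The cytotoxic list had 8 of 13 members above the floor higher and 1 lower (median difference 1.33, and 0.53 over all 20 measured). Gzma, a granule protease, was at 4.98 on the colon IEL array, 7.73 on the recolonized array, 10.38 on that of small intestinal IEL and 2.36 on the labelled LP array. Gzmb was at 4.64, 4.76, 9.46 and 2.13. Both colon IEL arrays lay between the small intestinal and the labelled LP array for these proteases. Ctsw (cathepsin W) and Nkg7 differed by 4.14 and 4.03, and the granule proteoglycan Srgn by 3.75. Lamp1, a lysosomal membrane protein of all cells, was lower, at 5.67 against 8.17. Among effector cytokines and chemokines 9 of 23 measured members were above the floor, 7 of them higher and 0 lower (median 1.73, and 0.58 over all 23). The chemokine Ccl5 was at 9.05 against 4.45, Xcl1 at 7.05 against 2.91 and lymphotoxin beta (Ltb) at 6.52 against 3.06. Ifng was below the floor, at 1.47 and 1.24.

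**Figure D2:**
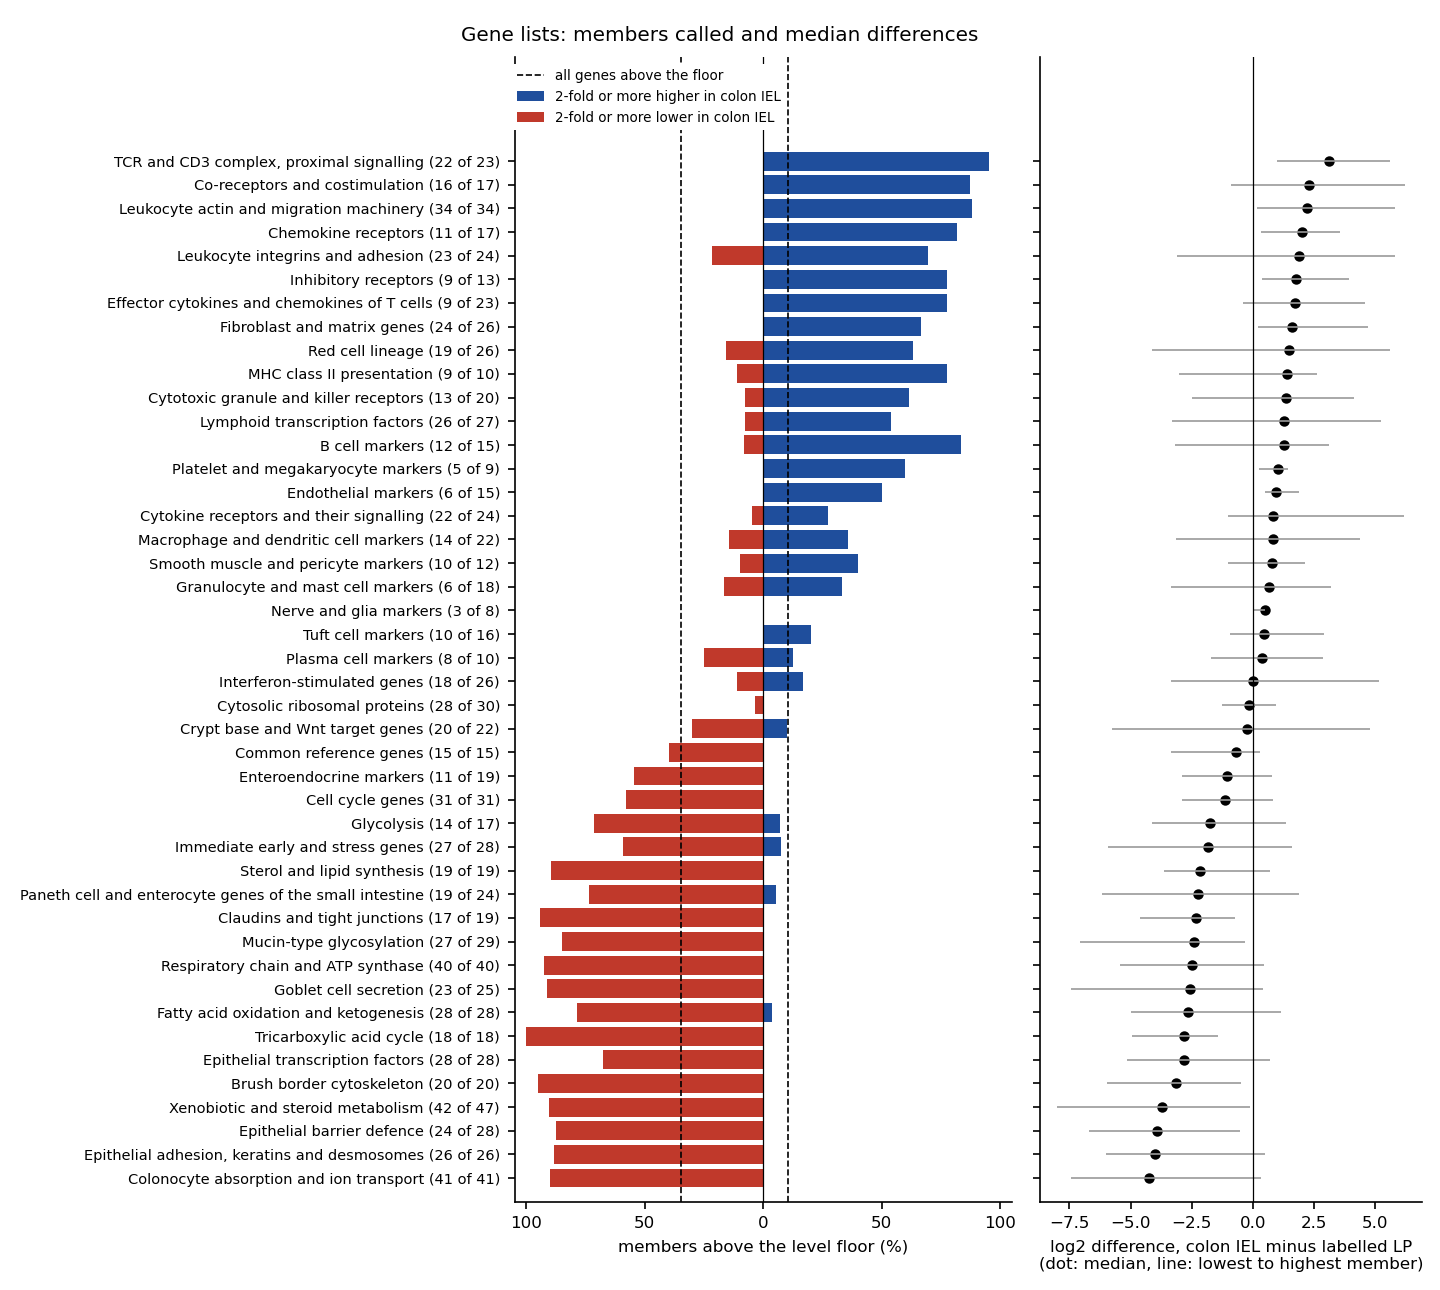
Left, percentage of the members above the level floor that were 2-fold or more higher (blue) or lower (red) in colon IEL, for 44 gene lists ordered by median difference, with the number above the floor of those measured; dashed lines show the shares over all genes above the floor, 10.5% higher and 34.7% lower. Right, the median log2 difference of each list (dot) and the range of its members (line); the T cell receptor list is at the top with 3.11 and the colonocyte transport list at the bottom with −4.25.

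Many leukocyte genes have a close relative, often one that works in epithelium or in all cells. Pairs of such relatives tended to part. Of 26 measured pairs of paralogues, all with both genes above the floor, the leukocyte gene was higher and its relative lower in 16, and the leukocyte gene was higher with its relative within 2-fold in 6. Both were higher in 1 pair, Runx3 and Runx1, with differences of 1.97 and 1.47. The leukocyte gene was lower in 0 pairs. The actin bundler Lcp1 (L-plastin) was higher by 3.50 while Pls1, the plastin of intestinal microvilli, was lower by 4.74 log2 units. Lcp1 was at 8.25, 8.48, 8.66 and 4.75 on the colon IEL, recolonized, small intestinal IEL and labelled LP arrays, whereas Pls1 was at 4.54, 5.65, 10.03 and 9.29. Pls1 was thus low on the colon IEL arrays alone. The phosphatase Ptprc differed by 5.62 and its relative Ptprf by −3.39. The myosin Myo1g differed by 2.67 and Myo1a, a motor of the brush border, by −5.75; the other probe set of Myo1g differed by 0.15. The Rac activators Dock2 and Dock1 differed by 3.87 and −4.14, and the factors Klf2 and Klf5 by 2.31 and −5.14. Rac2 was higher by 4.25 and the ubiquitous Rac1 had a difference of −1.19, which became 0.07 under quantile normalization. The pairs were chosen with earlier results of these data known, so their directions are a description.

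**Figure D3:**
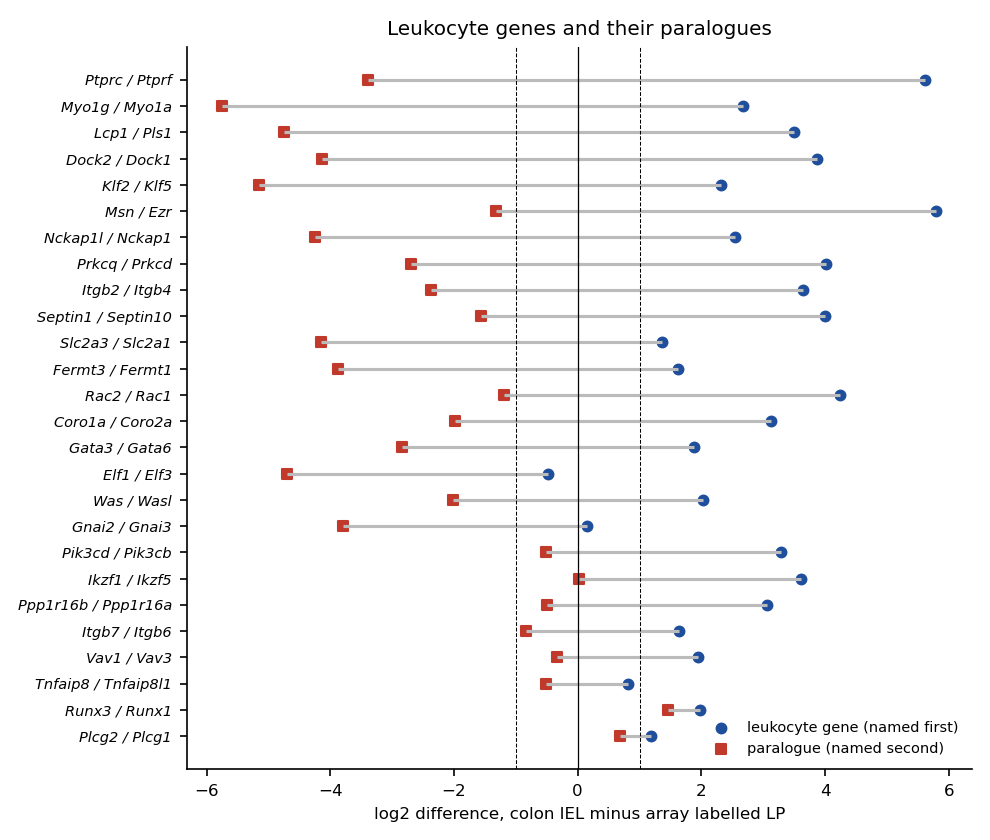
Log2 difference (colon IEL minus array labelled LP, 1 array each) of 26 leukocyte genes (blue circles) and their paralogues (red squares), joined by a line; dashed lines mark a 2-fold difference. The leukocyte gene lies to the right of its relative in each pair shown, from Ptprc and Ptprf (5.62 and −3.39) to Plcg2 and Plcg1.

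Signals that pass between lymphocytes and epithelium were measured on both sides in 19 of 21 listed pairs, mostly of ligand and receptor. Of the measured pairs, 7 had both genes above the floor. Among the 7 the leukocyte gene was higher and its partner lower in 2: Il2rb with Il15, the cytokine that sustains IEL, and S1pr1 with Sgpl1. The last is the lyase that breaks down the ligand of S1pr1, and is not itself a ligand. Il15 was at 2.28 on the colon IEL array, 2.08 on the recolonized array, 2.91 on that of small intestinal IEL and 5.35 on the labelled LP array. Sgpl1 was at 3.03, 4.06, 6.86 and 7.13. The cytokine Il18 was at 2.88 on the colon IEL array against 7.32 on the labelled LP array, and its receptor chain Il18r1 differed by 0.89. Il22ra1, through which epithelium receives interleukin-22, was at 2.49 and 5.90, while Il22 itself lay below the floor at 1.05 and 1.00. PD-1 (Pdcd1) and its ligand Cd274 were both higher, by 1.73 and 1.20.

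Markers of further cell types differed from list to list, and for some genes the colon IEL array stood alone. Over 11 lists of other cell types, 171 members were measured. Of the 116 above the floor, 63 were higher and 11 lower, with a median difference of 1.06. With the same floor, the chemoreceptor yardstick had 25.7% higher and 0 lower. Above the floor, the list median reached 2-fold for B cell, MHC class II, red cell, platelet and matrix genes. It stayed below 2-fold for markers of plasma cells (0.35), macrophages (0.81), granulocytes (0.67), endothelium (0.93), smooth muscle (0.78) and nerve (0.48). The matrix genes of fibroblasts were shared with the recolonized array, the B cell and MHC class II genes with the small intestinal IEL array, and the red cell genes with neither. Matrix genes were shared in smaller part with the small intestinal IEL array too, where 7 of 21 above the floor were higher and 0 lower. The part of these other cell types in the differences of the T cell lists was not tested.

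Fibroblast and matrix genes had 16 of 24 members higher and 0 lower (median difference 1.58, and 1.91 when the recolonized array stood in for it). Col1a1, a chain of type I collagen, was at 7.59 on the colon IEL array, 6.31 on the recolonized array, 4.18 on that of small intestinal IEL and 3.60 on the labelled LP array. Dcn (decorin), a proteoglycan that binds collagen, was at 7.96, 9.03, 6.23 and 3.26. The labelled LP array, whose label names the connective tissue layer, was the lowest for both. Col3a1 differed by 3.68, and Vim, the intermediate filament of mesenchymal cells and leukocytes, by 4.23. Smooth muscle markers had 4 of 10 members higher and 1 lower (median 0.78), led by Acta2 with 2.13, and endothelial markers 3 of 6 above the floor higher (median 0.93, and 0.49 over all 15 measured), led by Pecam1 with 1.88. None of 3 nerve and glia markers above the floor differed by 2-fold.

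B cell markers had 10 of 12 members higher and 1 lower (median difference 1.26, and 0.69 with the recolonized array). Cd79a, a chain of the B cell receptor, was at 5.57 on the colon IEL array, 3.31 on the recolonized array, 7.49 on that of small intestinal IEL and 2.45 on the labelled LP array. The colon IEL array lay between the small intestinal IEL array and the other 2 arrays. Blnk, an adaptor of the B cell receptor, was the member that was lower, at 2.94 against 6.12. MHC class II genes had 7 of 9 members higher and 1 lower (median 1.39, and 0.88 with the recolonized array). H2-Ab1, a class II chain, was at 7.62, 4.31, 9.30 and 5.13 in the same order of arrays. Its direction therefore turned with the recolonized array, for which the difference was −0.82. Ctss, a protease that trims the invariant chain, was lower, at 5.03 against 8.06. Plasma cell markers had 1 of 8 members higher and 2 lower: Slamf7 differed by 2.87, Sdc1 by −1.72 and Xbp1 by −1.48. The last became 0.06 under quantile normalization, and the other probe set of Sdc1 differed by 0.15.

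Macrophage and dendritic cell markers had 5 of 14 members higher and 2 lower, and their median of 0.81 became −0.11 with the recolonized array. Lyz2, a lysozyme of myeloid cells, was at 6.40 on the colon IEL array, 5.74 on the recolonized array, 6.65 on that of small intestinal IEL and 2.05 on the labelled LP array. Csf1r, the receptor that defines macrophages, differed by 0.78, and the complement genes C1qa, C1qb and C1qc by −0.25, −0.02 and 0.96. Adgre1 and Cd209a were higher, by 1.27 and 1.58, and the other probe set of Cd209a differed by 0.50. Mertk, a receptor for dying cells, was lower, at 3.59 against 6.75. Granulocyte and mast cell markers had 2 of 6 members above the floor higher and 1 lower (median 0.67, and 0.46 over all 18 measured). The mast cell protease genes Cpa3 and Mcpt1 differed by 3.20 and 2.25. The only member that was lower was Ly6g, a marker of neutrophils, with −3.35. Ly6g was at 2.20, 3.62, 2.09 and 5.55 on the colon IEL, recolonized, small intestinal IEL and labelled LP arrays.

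Red cell genes had 12 of 19 members above the floor higher and 3 lower. The median difference was 1.48, 0.92 over all 26 measured, and −0.36 with the recolonized array. Slc4a1, the band 3 anion exchanger, was at 7.93 on the colon IEL array, 2.32 on the recolonized array, 2.64 on that of small intestinal IEL and 2.32 on the labelled LP array. Slc25a37, the mitochondrial iron importer of erythroid cells, was at 10.27, 4.41, 5.80 and 4.82. For both genes the colon IEL array stood at least 4 log2 units above each of the other 3. Fam220a differed by 5.42, Ube2o, a ubiquitin enzyme that remodels the reticulocyte proteome, by 4.27, and Bpgm, which makes the haemoglobin effector bisphosphoglycerate, by 3.61. The members that were lower are also carried by epithelium: Slc2a1 (−4.14; its other probe set 0.16), Tfrc (−3.36) and Car2 (−1.67). Globin genes were not analysed here. Platelet markers had 3 of 5 members above the floor higher and 0 lower (median 1.04, and 0.52 over all 9 measured).

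Interferon-stimulated genes did not move together. Of 18 above the floor 3 were higher, 2 lower and 13 within 2-fold, with a median difference of 0.00. Rsad2 (viperin) was at 8.36 on the colon IEL array, 3.41 on the recolonized array, 3.25 on that of small intestinal IEL and 3.20 on the labelled LP array. Isg20 was at 8.82, 4.40, 4.63 and 4.67. Isg15 was at 4.66, 2.10, 2.82 and 2.46. Each of the 3 was high on the colon IEL array, and its own levels on the other arrays lay within 1 log2 unit. Ube2l6, the enzyme that attaches the Isg15 protein, was at 8.27, 3.88, 4.46 and 2.92. Ifih1, a sensor of viral RNA, went the other way with 3.58, 4.33, 6.58 and 6.93, and Irf7 and Stat2 differed by −0.89 and −0.40. Whether the 3 genes are linked to the red cell genes was not tested.

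**Figure D4:**
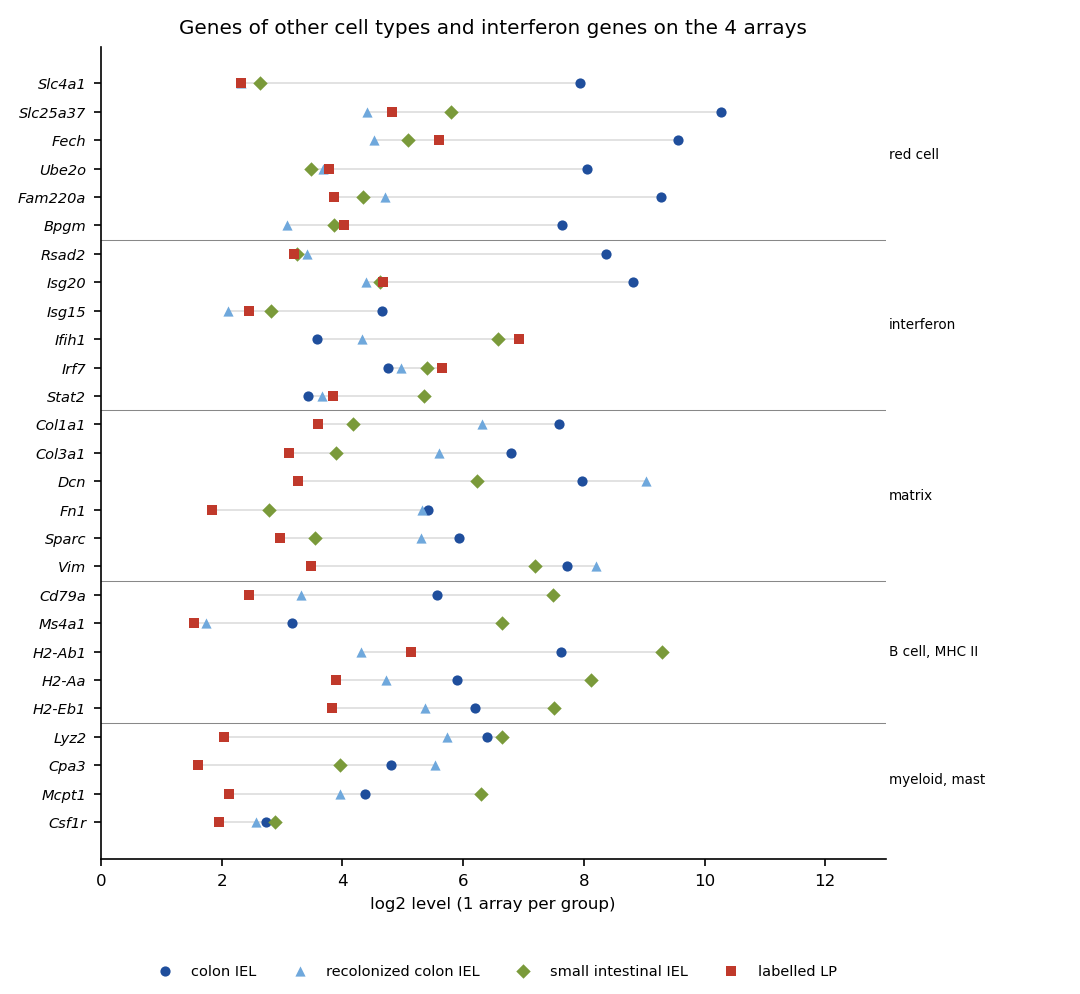
Log2 levels of genes of red cells, interferon-stimulated genes, matrix genes, B cell and MHC class II genes and myeloid and mast cell genes on the 4 arrays (1 array per group, marked by colour and shape). Red cell genes and Rsad2, Isg20 and Isg15 are high on the colon IEL array alone, Col1a1 and Dcn are highest on the colon IEL arrays, and Cd79a and H2-Ab1 are highest on the small intestinal IEL array.

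Genes of the colon epithelium were lower in colon IEL across the groups for junctions, absorption, mucus and defence. Rarer cell types were less separated, and crypt genes had shares near those of all genes above the floor. Of the 253 members of 12 epithelial lists above the floor, 193 were lower and 5 higher, with a median difference of −2.90. The largest negative differences of all genes eligible for naming were those of Cyp2c55 (−8.01; its other probe set −0.62), Reg4, Slc26a3, Clca3b, Slc6a14, B4galnt2, Guca2a, Ugt2b34, Dmbt1, Gsdmc2, Atp8b1 and Hao2. Atp8b1, a lipid flippase, was at 3.05 on the colon IEL array against 9.42 on the labelled LP array, and the peroxisomal oxidase Hao2 at 2.0 and 8.37.

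Adhesion and keratin genes had 23 of 26 members lower and 0 higher (median difference −4.02). Cdh17, a cadherin of intestinal epithelium, was at 3.43 on the colon IEL array, 4.06 on the recolonized array, 8.23 on that of small intestinal IEL and 9.37 on the labelled LP array. Cdhr2, a cadherin that links microvilli, was at 2.48, 3.61, 7.73 and 8.48. Both colon IEL arrays were low, and the small intestinal IEL array was closer to the labelled LP array. The desmosomal cadherin Dsg2 differed by −5.48 and its other probe set by −0.19. Evpl and Ppl, plakins of stratified epithelium, differed by 0.48 and 0.43. Of the tight junction genes, 16 of 17 were lower and 0 higher (median −2.33). F11r, a junctional adhesion molecule, differed by −4.63 and occludin (Ocln) by −3.84. Claudin genes Cldn7 and Cldn8 differed by −4.09 and −3.78; Cldn8, at 5.51 on the labelled LP array, was between 1.73 and 2.22 on the 3 IEL arrays.

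Transcription factors of the epithelium had 19 of 28 members lower and 0 higher (median difference −2.83). Klf5, a factor of proliferating crypt cells, was at 3.69 on the colon IEL array, 5.32 on the recolonized array, 7.41 on that of small intestinal IEL and 8.83 on the labelled LP array. Elf3, an epithelial ETS factor, differed by −4.70, and Isx, an intestinal homeobox factor, by −4.36. Hnf4a, Cdx2 and Atoh1 differed by less, −2.75, −2.30 and −2.83. Spdef and Foxa3, factors of goblet cells, were nearly level with −0.20 and −0.07, and Foxa2 differed by 0.70.

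Absorption and ion transport genes of colonocytes had the lowest median of the 44 lists, −4.25, with 37 of 41 members lower and 0 higher. Slc26a3 exchanges chloride for bicarbonate. It was at 2.82, 5.57, 5.78 and 10.26 on the colon IEL, recolonized, small intestinal IEL and labelled LP arrays. The first and last are 174-fold apart on the deposited scale. The colon IEL level lay between that array's median of 2.41 and its upper quartile of 3.27, which limits the size. Slc6a14, an amino acid transporter, was at 2.22, 4.22, 1.99 and 9.41. Guca2a, the hormone guanylin, was at 3.68, 7.16, 6.65 and 10.54. The labelled LP array was the highest for the 3 genes, and the colon IEL array was near the median of all genes for Slc6a14. Slc16a1, the transporter of the short-chain fatty acid butyrate, differed by −5.65, the chloride channel Cftr by −5.22, and the water channel Aqp8 by −4.25. Of the 3 subunits of the epithelial sodium channel, Scnn1a differed by −4.34, Scnn1b by −0.37 and Scnn1g by 0.33. Brush border genes had 19 of 20 members lower and 0 higher (median −3.14), led by Mal (−5.99) and Myo1a (−5.75). Mal was at 9.15 on the labelled LP array and between 2.53 and 3.16 on the 3 IEL arrays, while villin (Vil1) was at 8.51 there and 9.43 on the small intestinal IEL array.

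**Figure D5:**
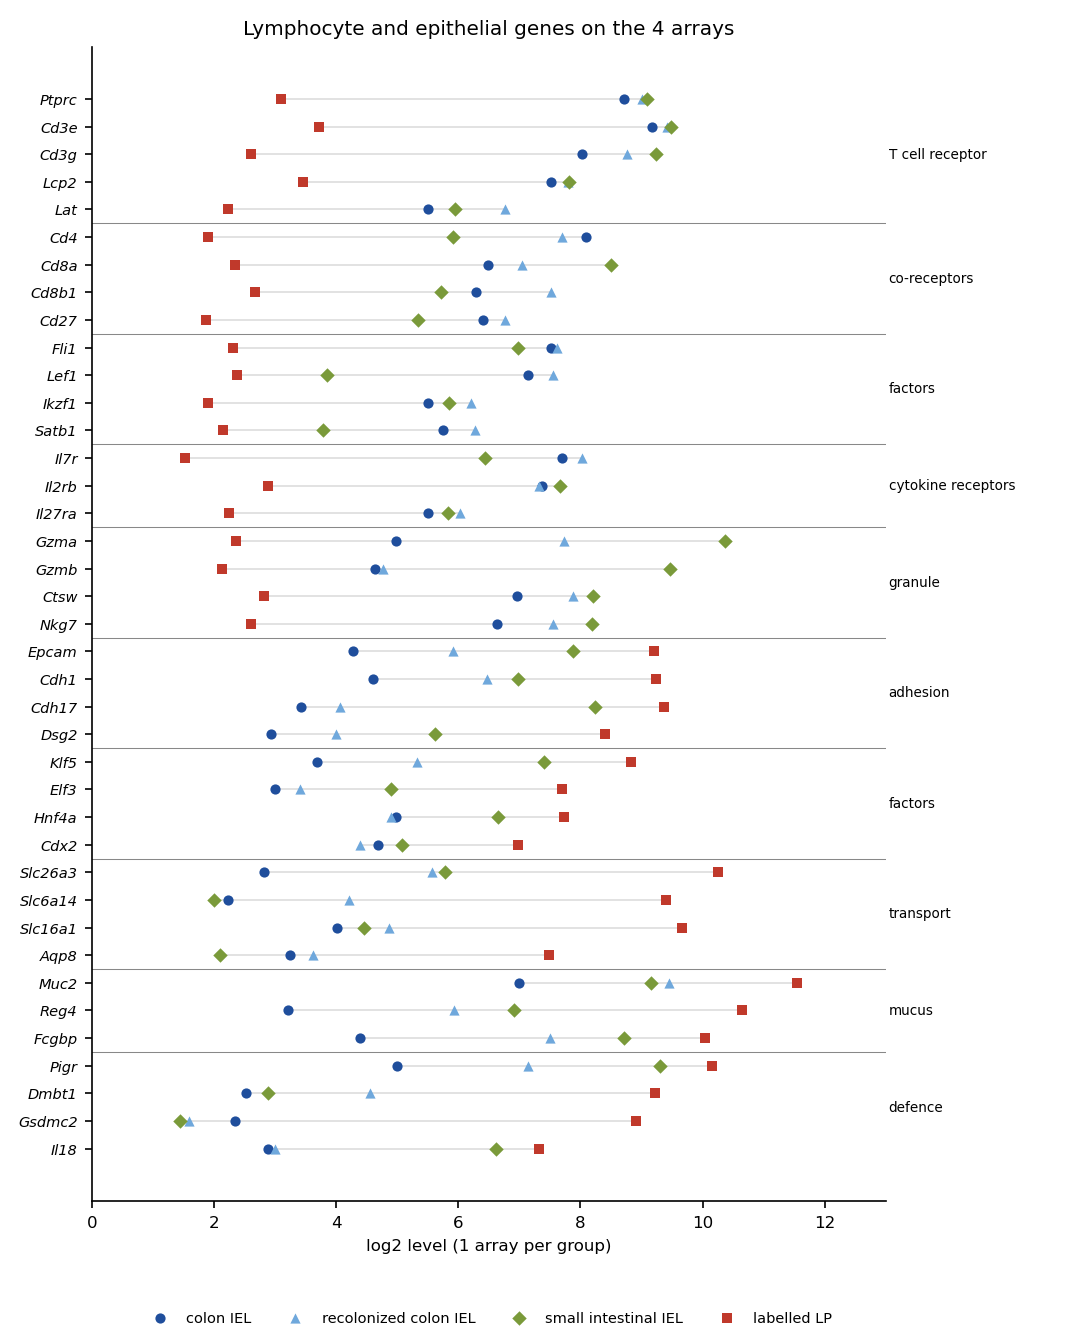
Log2 levels of lymphocyte genes (upper 5 blocks) and epithelial genes (lower 5 blocks) on the 4 arrays, 1 array per group, marked by colour and shape. The labelled LP array (red squares) is the lowest for each lymphocyte gene shown and the highest for each epithelial gene shown; for Slc26a3 it is at 10.26 against 2.82 on the colon IEL array.

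Mucus genes of goblet cells had 21 of 23 members lower and 0 higher (median difference −2.58). Reg4, a secreted lectin, was at 3.21 on the colon IEL array, 5.92 on the recolonized array, 6.90 on that of small intestinal IEL and 10.65 on the labelled LP array. Clca3b was at 1.87, 3.0, 4.07 and 9.15. The colon IEL array was the lowest of the 4 for both. Muc2 differed by −4.55, and by −4.70 with its other probe set, whereas other abundant goblet products had smaller differences: Clca1 −2.26, Zg16 −2.23 and Tff3 −1.23. Ang4, an antimicrobial ribonuclease of secretory cells, was at 6.83 and 6.42. Genes that build and sulfate the sugar chains of mucins had 23 of 27 members lower and 0 higher (median −2.40). They were led by B4galnt2, which makes the Sda antigen, with a difference of −7.06, and Papss2, which makes the sulfate donor, with −5.17. B4galnt2 was at 3.53, 5.54, 8.00 and 10.59 in the same order of arrays.

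Barrier defence genes had 21 of 24 members lower and 0 higher (median difference −3.92). Dmbt1, a scavenger receptor protein of mucosal surfaces, was at 2.52 on the colon IEL array, 4.55 on the recolonized array, 2.87 on that of small intestinal IEL and 9.22 on the labelled LP array. Gsdmc2, a gasdermin, was at 2.34, 1.59, 1.43 and 8.91. Pigr, which carries IgA across the epithelium, was at 4.99, 7.15, 9.30 and 10.16. The first genes were high on the labelled LP array alone, and Pigr also on the small intestinal IEL array. Inflammasome genes Nlrp6, Casp1 and Il18 differed by −4.56, −4.67 and −4.44. Duox2 and Nos2, which make reactive oxygen and nitric oxide, differed by −1.31 and −0.52.

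Rarer epithelial lineages were less separated. Enteroendocrine markers had 11 members above the floor, of which 6 were lower and 0 higher (median difference −1.08, and −0.15 over all 19 measured), led by the granins Chgb (−2.91) and Chga (−2.90), while the hormone Pyy differed by −0.40. Tuft cell markers had 2 of 10 members higher and 0 lower (median 0.45). The higher ones were Alox5ap (2.89; other probe set 0.61) and Gfi1b (1.29), which leukocytes and blood cell precursors also carry. Dclk1 and Trpm5, more particular to tuft cells, differed by −0.34 and 0.49. Crypt genes had 2 of 20 higher and 6 lower, near the shares over all genes above the floor, 10.5% and 34.7%. Their median was −0.24, and 0.02 under quantile normalization. Prom1 was at 2.30 against 8.08, Lgr4 at 2.68 against 7.42, and the stem cell receptor Lgr5 at 1.70 against 4.07 (its other probe set differed by 0.60). Olfm4 and Ascl2 differed by −0.24 each. The higher members were Notum (1.42), an inhibitor of Wnt signals, and Lef1, which T cells carry as well. Genes of Paneth cells and small intestinal enterocytes, named for another segment, still had 19 members above the floor, of which 14 were lower and 1 higher (median −2.23, and −1.20 over all 24 measured). The maltase Mgam was at 1.59, 2.66, 9.22 and 7.77 on the colon IEL, recolonized, small intestinal IEL and labelled LP arrays. The sucrase Sis differed by −2.92 and the lipoprotein Apob by −5.55. Lyz1, the Paneth cell lysozyme, was the higher member with 1.86, and its difference was −0.46 with the recolonized array.

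Metabolic genes were lower in colon IEL almost throughout. Over 6 lists, 141 of 160 members above the floor were lower and 2 higher, with a median difference of −2.63. Enzymes that modify drugs and steroids had 38 of 42 members lower and 0 higher (median −3.72). Ugt2b34, a glucuronosyltransferase, was at 2.39 on the colon IEL array, 3.89 on the recolonized array, 8.31 on that of small intestinal IEL and 9.23 on the labelled LP array. Cyp2c55, a cytochrome P450 of the colon, was at 3.52, 6.54, 5.87 and 11.54. Hsd3b3, a steroid dehydrogenase, was at 1.47, 2.49, 1.95 and 7.63. The colon IEL array was the lowest for each of the 3, and the labelled LP array the highest.

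Mitochondrial pathways moved as blocks. The tricarboxylic acid cycle had 18 of 18 members lower, from −4.94 for Suclg2 (other probe set −0.64) to −1.43 for Pcx, with a median of −2.82. The respiratory chain and ATP synthase had 37 of 40 lower and 0 higher (median −2.48), led by cytochrome c (Cycs, −5.45; its other probe sets between −4.31 and −0.95) and Cox5a (−4.19). Cox5a was at 4.33, 4.96, 7.25 and 8.52 on the colon IEL, recolonized, small intestinal IEL and labelled LP arrays. Fatty acid oxidation genes had 22 of 28 lower and 1 higher (median −2.66). Hadh was at 4.22, 4.82, 9.34 and 9.19 on these arrays, and Cpt1a, which admits long-chain fatty acids to mitochondria, at 3.88, 4.74, 5.15 and 8.31. Thus Hadh was high on the small intestinal IEL and labelled LP arrays, and Cpt1a on the labelled LP array alone. The member that was higher was Acot12 (1.13). Under quantile normalization the 3 medians were −1.38, −1.24 and −1.53, and after the lowess correction −1.37, −1.22 and −1.45.

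Glycolysis genes were lower with a median that depended on scaling. The list had 10 of 14 members lower and 1 higher, with medians of −1.75 as deposited, −0.42 with quantile normalization and −0.53 after the lowess correction. Over all 17 measured members the median as deposited was −1.265. Pfkl and Hk2, early enzymes of the pathway, differed by −4.07 and −3.38. The glucose transporters parted: Slc2a3 was at 3.50 on the colon IEL array against 2.13 on the labelled LP array, and Slc2a1 at 3.61 and 7.76. Sterol and lipid synthesis had 17 of 19 members lower and 0 higher (median −2.16, and −1.01 under quantile normalization), led by Agpat2 (−3.62) and Cyp51 (−3.57). Scd1 differed by 0.71.

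Immediate early genes, which respond within minutes to stimuli and to tissue handling, were lower in colon IEL. Of 27 above the floor 16 were lower and 2 higher, with a median difference of −1.82. Jun was at 3.04, 4.05, 5.18 and 8.97 on the colon IEL, recolonized, small intestinal IEL and labelled LP arrays. The first and last are 60.7-fold apart on the deposited scale. Fos was at 3.24, 3.22, 4.50 and 7.70. The labelled LP array was the highest for both. Per the series' text, lamina propria tissue was incubated with collagenase. Since the array's markers go against its label, whether its material went through that step cannot be told here. Whether handling had a part was not tested. Klf4 and Zfp36 differed by −4.30 and −4.29, and the heat shock gene Hspa1b by −3.48. The higher members were Dusp2 (1.59) and Egr3 (1.09), and Myc and Nr4a1 differed by −0.11 and −0.56. Quantile normalization gave a median of −0.39 and the lowess correction −0.34, while Jun remained at −5.29 and −4.44.

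Cell cycle genes had 18 of 31 members lower and 0 higher (median difference −1.15, and −0.71 under quantile normalization). Rrm1, a subunit of ribonucleotide reductase, differed by −2.89, the topoisomerase Top2a by −2.68 and Mki67 by −2.39. Top2a was at 2.95, 3.02, 3.80 and 5.63 on the colon IEL, recolonized, small intestinal IEL and labelled LP arrays. Among D-type cyclins, Ccnd1 was lower with a difference of −1.93. Ccnd2 and Ccnd3 were within 2-fold, at −0.80 and 0.81, and Ccnd2 was at 0.77 under quantile normalization. Reference genes had 6 of 15 members lower and 0 higher, beside 34.7% lower and 10.5% higher over all genes above the floor. Their median of −0.68 became 0.38 with quantile normalization and 0.42 with the lowess correction. Hprt differed by −3.0, Gapdh by −1.66, Actb by −0.35 and B2m by 0.24. Ribosomal protein genes had a median of −0.15, which became 0.94 under quantile normalization.

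The recolonized colon IEL array gave a similar balance against the same labelled LP array, with 39.7% of 12589 genes called, 9.41% higher and 30.3% lower. Both comparisons share the labelled LP array, so their values are set side by side only. For the T cell receptor list the median was 3.11 with the colon IEL array and 3.42 with the recolonized array, that of colonocyte transport −4.25 and −3.50, that of barrier defence −3.92 and −2.57, and that of immediate early genes −1.82 and −1.53.

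Promoter windows were searched for letters known as core motifs of lymphocyte or epithelial factors. RefSeq windows (build GRCm38.p6, 250 bases before to 50 after a gene's start) matched 16990 of the 22180 genes, with 20611 windows, and 5 motifs of 7 letters were searched on both strands. Since called genes all lie above the floor, shares are set beside the 12577 windows of genes above it. TGTGGTT (RUNX) was in 6.09% of windows of genes higher in colon IEL, 3.08% of windows of lower genes and 3.84% of windows above the floor. CGGAAGT (ETS) was in 3.78%, 12.8% and 11.4%, against 8.33% of the windows of all genes. CAAAGTC (HNF4) was in 4.98%, 3.72% and 3.93%, TTTATGG (CDX) in 2.66%, 1.70% and 1.81%, and TGACTCA (AP-1) in 4.64%, 4.07% and 3.93%. The ETS share of lower genes was thus near that of all genes above the floor, and the share of higher genes was below it. Subsets at 4-fold or more were chosen after values were seen. Among those higher, with 250 windows, the RUNX letters were in 13.6%, ETS in 3.6%, HNF4 in 7.6%, CDX in 2.0% and AP-1 in 6.0%. Among those lower, with 1852 windows, RUNX was in 4.16%, ETS in 9.88%, HNF4 in 4.48%, CDX in 2.65% and AP-1 in 5.35%. A match is a description of the letters, and binding was not measured.

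The upstream regions of 4 genes show such matches, each as the 250 bases before the gene's start, 5′ to 3′ on the gene's strand, with the match in capitals. They were chosen after the windows had been searched. Cd96, a receptor of T and natural killer cells with a difference of 4.24, and the chemokine gene Xcl1, with 4.14, hold the RUNX letters on the other strand, as AACCACA. Cyp2c65, a cytochrome P450 with a difference of −6.08, holds the HNF4 letters, and so does Cd8a, on the other strand as GACTTTG, although Cd8a was higher by 4.15. The regions are chr16:46120249-46120498 (minus strand) for Cd96, chr1:164935523-164935772 (minus) for Xcl1, chr19:39060756-39061005 (plus) for Cyp2c65 and chr6:71373177-71373426 (plus) for Cd8a.
Cd96: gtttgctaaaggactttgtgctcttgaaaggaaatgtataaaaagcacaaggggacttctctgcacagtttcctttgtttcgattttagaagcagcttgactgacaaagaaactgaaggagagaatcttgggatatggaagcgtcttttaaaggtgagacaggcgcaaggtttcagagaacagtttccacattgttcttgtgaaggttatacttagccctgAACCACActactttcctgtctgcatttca
Xcl1: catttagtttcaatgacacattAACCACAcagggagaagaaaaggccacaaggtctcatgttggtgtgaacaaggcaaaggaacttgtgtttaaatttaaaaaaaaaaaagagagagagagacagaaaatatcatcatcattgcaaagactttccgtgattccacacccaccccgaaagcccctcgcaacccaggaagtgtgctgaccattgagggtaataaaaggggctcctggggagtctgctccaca
Cyp2c65: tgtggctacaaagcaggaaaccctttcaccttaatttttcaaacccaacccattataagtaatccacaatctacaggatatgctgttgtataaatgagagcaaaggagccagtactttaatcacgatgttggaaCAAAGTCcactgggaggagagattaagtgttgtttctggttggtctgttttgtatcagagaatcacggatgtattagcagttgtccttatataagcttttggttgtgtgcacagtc
Cd8a: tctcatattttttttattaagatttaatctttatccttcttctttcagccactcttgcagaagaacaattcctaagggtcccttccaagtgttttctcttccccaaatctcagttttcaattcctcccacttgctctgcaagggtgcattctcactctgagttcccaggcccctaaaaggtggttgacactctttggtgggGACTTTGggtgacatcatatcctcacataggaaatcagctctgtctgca
The matches begin 29, 228, 116 and 49 bases before the start in that order.

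Genes of miRNA precursors were also on the arrays, and were examined after values were seen. Of 483 such genes, host genes included, 133 lay above the floor, 45 of them (33.8%) higher and 13 (9.77%) lower, beside 25.7% higher among the chemoreceptor yardstick. These probe sets detect precursor transcripts, not the mature miRNAs. Mir181d was at 8.24 on the colon IEL array, 7.71 on the recolonized array, 6.16 on that of small intestinal IEL and 5.00 on the labelled LP array. Mir181b-2 was at 4.06, 1.89, 2.12 and 1.70, high on the colon IEL array alone. Mir194-1 was lower, at 3.05 against 4.37, and so was Mir196a-1, at 2.40 against 4.15. Family members did not all differ: Mir181c was higher by 1.22, Mir181a-2 was at −0.08, Mir181a-1 and Mir181b-1 lay below the floor, and Mir194-2 was at −0.17. Mir142, known from leukocytes, differed by −0.18, and Mir200c and Mir375, known from epithelium, were higher in colon IEL by 1.25 and 1.35. The largest differences among the precursor genes were those of Mir1932 (5.80) and Mir5123 (−3.38), whose sequences are not shown. The mature sequences of the first 4 genes, from RefSeq (GRCm38.p6), are shown with the seed, bases 2 to 8, in capitals, since the first pair shares it.
miR-181d-5p: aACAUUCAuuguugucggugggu
miR-181b-5p: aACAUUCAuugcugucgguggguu
miR-194-5p: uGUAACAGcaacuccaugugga
miR-196a-5p: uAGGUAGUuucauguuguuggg
The seeds of miR-194-5p and miR-196a-5p differ from it and from each other.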

How the data were processed

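The deposited table holds log2 values for 41345 probe sets. Per the submitters' processing notes, the authors used Affymetrix Expression Console. Neither its version nor its summarization or normalization method is stated in what was used here. Probe sets with exactly 1 gene symbol (23521) were used, and each of 22180 genes took its brightest probe set, by the mean of 4 arrays. Each result is the log2 difference of 1 array per group, with a floor at the 50th percentile and a 2-fold threshold. A list's median covers its members above the floor. The 44 lists (1035 genes, 951 measured, 813 above the floor) and the pairs were chosen with earlier results of these data known.

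Named genes are the 12 with the largest difference in each direction above the floor (leaving out chemoreceptors, small RNAs, unnamed genes and antigen receptor segments), the 4 members of each list with the largest absolute difference, members that moved 2-fold against their list's median, all genes of the pairs, and 16 genes named in any case, such as Cd4 and Jun. Other genes named were chosen after their values were seen.

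Alternatives were floors at the 25th and 75th percentiles or none, 1.5-fold and 3-fold thresholds, averaged probe sets, genes with a single probe set, quantile normalization, centring each array on its median above the floor, a lowess correction (span 0.3) and the recolonized array as the colon IEL array. A listed pseudocount was not run because log2 values need none. Differences and counts were tested on simulated data. Python 3.11.15, pandas 2.3.3, numpy 2.4.6 and statsmodels 0.14.6 were used. Some genes are not analysed here.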

Additional observations from a re-analysis of the deposited data

How the results depend on the processing

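No paired analysis was possible because each group was 1 array. The 1344 higher and 4437 lower genes became 2750 higher at 1.5-fold, and 493 higher and 2789 lower at 3-fold. Under quantile normalization 2287 were higher and 2387 lower, after centring 3081 and 2945, and after the lowess correction 2356 were lower. Each of these scalings by its construction moves the shares towards each other. Of 32 lists with a median of 2-fold or more, 32 kept their sign under each floor, probe set rule and scaling run, and 31 with the recolonized array, where the red cell median of 1.48 became −0.36; the cause was not tested. Sign is the weaker criterion: lists higher by 2-fold or more numbered 14, and 10 with no floor, where the medians were 0.53 for cytotoxic, 0.58 for effector cytokine, 0.92 for red cell and 0.52 for platelet genes. Lists lower by as much numbered 18, and 17 with no floor (enteroendocrine −0.15), 14 with quantile normalization and 13 with the lowess correction. The nerve and glia list had no member above the floor at the 75th percentile and gave no value there. Of 23 other probe sets of 20 named genes called, 16 had the same sign as the probe set used, 7 of them by 2-fold or more, and 7 had the opposite sign. Levels near or below an array's median, 2.18 on the labelled LP array and 2.41 on the colon IEL array, limit the size that can be given to a difference in either direction: Cd4 was at 1.89 on the first, and Clca3b at 1.87, Slc6a14 at 2.22, Gsdmc2 at 2.34 and Ugt2b34 at 2.39 on the second. The share of higher genes among those called was 23.7% with the recolonized array.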
